A study of Mus musculus with 10 samples.

Results

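Hmgcs1, Idi1, Fdps, Fdft1, Sqle, Lss, Cyp51 and Insig1 are 7 enzymes and 1 regulator of cholesterol synthesis, and their RNA was followed in mouse blood progenitors that carried a leukaemia fusion protein, a point mutant of it, or a marker gene alone. They are 8 of the 18193 genes tested. They were chosen by name, and for each gene the probe set that was brightest on average across the 10 arrays was used. The label under which they were grouped also names cholesterol uptake, but none of the 8 is an uptake receptor, so they are called cholesterol synthesis genes here and genes of uptake are described from a separate list.

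The study measured RNA on 10 arrays in 3 groups: AML1/ETO with the W692A substitution (4 arrays, called W692A), AML1/ETO (3 arrays) and the MigR1 retroviral vector with green fluorescent protein alone (GFP, 3 arrays). AML1/ETO joins the DNA-binding part of the blood transcription factor RUNX1 to the corepressor ETO, and W692A changes the MYND domain of ETO, which binds other corepressors. In all groups, lineage-negative Sca1+ bone marrow cells of C57BL/6 mice aged 5 to 6 weeks were cultured with IL-3 (10 ng/ml), IL-6 (20 ng/ml) and SCF (10 ng/ml) and given virus on 2 occasions 24 hours apart. At 48 hours after the second transduction, 25000 live GFP+ cells that were still lineage-negative, Sca1+ and cKit+ were sorted, and 50 ng of RNA was amplified in more than 1 round. The labels describe independent transductions. The sources used here do not say whether they came from different mice, so the p-values measure the spread between these samples, which may in part be technical. The viral promoter drives the transgene in every transduced cell, so the fusion is not under the control it has in a leukaemia. In bulk samples such as these, fewer cells that express a gene and less RNA per cell cannot be told apart.

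Cholesterol is built from acetyl-CoA through mevalonate to farnesyl diphosphate, and then through squalene and lanosterol. The genes of this route are switched on together by the transcription factor SREBP-2. When sterols are plentiful, INSIG proteins hold SREBP and its escort SCAP in the endoplasmic reticulum, and when sterols are scarce SREBP is released, cut and sent to the nucleus. Proliferating blood progenitors use the pathway for membranes and for the prenyl groups that anchor small GTPases.

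Signals are log2 intensities. The background bound was 2.04, the highest signal that any control probe set for a Bacillus subtilis gene reached on these arrays. A fold against a group with any array at or below it is written as at least that size, computed with such values set to the bound. Pearson's r was 0.984 to 0.992 within groups and 0.892 to 0.965 between them, across genes. Of 9 measured stem and progenitor markers, 8 were above the bound on all arrays, for example Cd34 at 6.38 to 6.90 with W692A, 6.46 to 6.80 with AML1/ETO and 4.79 to 5.54 with GFP. The probe set of Kit was below the bound on all 10 arrays although the cells were sorted for its protein, and the Sca1 gene is not analysed here. The probe set of Runx1t1, the gene of ETO, was at 0.532 to 0.860 on the W692A arrays, 2.10 to 3.13 on the AML1/ETO arrays and 0.419 to 1.03 on the GFP arrays, so it was above the bound with AML1/ETO alone. The sources used here do not say whether that probe set lies within the transgene, and the mutant arrays are taken as labelled.

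RefSeq promoter windows of mouse build GRCm38.p6 were at hand for 5 of the 8 genes, Hmgcs1, Idi1, Lss, Cyp51 and Insig1, each with 250 bases before the start and 50 from the start on. The promoters of Hmgcs1, Lss and Cyp51 are shown because Lss and Cyp51 were lower with AML1/ETO while the used probe set of Hmgcs1 did not pass the test. They lie at chr13:119690101-119690350 on the plus strand, chr10:76531355-76531604 on the plus strand and chr5:4104698-4104947 on the minus strand. Each is printed from 5′ to 3′ up to the base before the start, with capitals for matches on either strand to the motifs searched.
Hmgcs1: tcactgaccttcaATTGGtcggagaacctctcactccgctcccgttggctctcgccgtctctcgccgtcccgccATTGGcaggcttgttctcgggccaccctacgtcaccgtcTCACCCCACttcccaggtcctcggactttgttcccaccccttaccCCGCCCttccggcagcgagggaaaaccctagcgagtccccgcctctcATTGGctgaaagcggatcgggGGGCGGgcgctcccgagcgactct
Lss: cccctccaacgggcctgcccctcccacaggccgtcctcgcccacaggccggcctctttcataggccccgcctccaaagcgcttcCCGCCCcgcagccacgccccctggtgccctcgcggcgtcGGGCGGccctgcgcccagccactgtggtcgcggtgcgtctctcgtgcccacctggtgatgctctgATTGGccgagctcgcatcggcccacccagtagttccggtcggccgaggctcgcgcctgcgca
Cyp51: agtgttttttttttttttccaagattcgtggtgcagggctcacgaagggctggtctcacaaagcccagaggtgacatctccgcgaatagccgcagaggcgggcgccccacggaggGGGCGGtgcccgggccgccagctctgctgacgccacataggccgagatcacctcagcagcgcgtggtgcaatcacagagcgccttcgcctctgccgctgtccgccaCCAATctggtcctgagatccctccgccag
The motifs were a strict sterol response element core (TCACNCCAC), a loose one (TCACNCNA) that overlaps it, the CCAAT box bound by NF-Y, and the GGGCGG box bound by Sp1, a pair of factors that are known to act with SREBP. The strict core was found in 1 of the 5 windows, that of Hmgcs1, as TCACCCCAC with its first base at position -137 from the start. It was present in 1.24% of 32851 windows of the same length. The loose core was in the same 1 of 5 windows at the same place, against 11.0% of all windows. The CCAAT box was in 5 of 5 windows (4 matches in Hmgcs1, 2 in Idi1 and 1 each in Lss, Cyp51 and Insig1), against 37.4% of all windows. The GGGCGG box was in 5 of 5 windows, against 35.7% of all windows. No match says only that these letters are not in the window.

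With AML1/ETO, 4 of the 8 genes were lower than with GFP and none was higher (6 and 0 at an unadjusted p under 0.05). They were Fdps, Sqle, Lss and Cyp51, and the largest difference was that of Sqle, at 2.54-fold. Over all 18193 genes, 15.8% were called lower and 12.9% higher in this comparison (limma, adjusted p under 0.05). Each of the 8 had a group mean above the background bound. Of the 8769 genes with such a mean in this comparison, 2624 were called lower and 1992 higher, larger shares than over all genes. All 8 log2 differences were below 0, against 53.2% of all genes, and their median was -0.70, against -0.018 over all genes. In 6 of the 8 every AML1/ETO array lay below every GFP array: the 4 called genes, Hmgcs1 and Fdft1. The same held for 21.0% of all genes, while in 18.1% every AML1/ETO array lay above every GFP array.

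With W692A, 2 of the 8 genes, Fdps and Sqle, were lower than with GFP and none was higher (3 and 0 at an unadjusted p under 0.05), where 9.07% of all genes were called lower and 5.45% higher. Where a gene's average exceeded the bound in W692A or GFP, 1506 of 8530 were lower and 866 higher. The 2 are thus not read as particular to the 8 genes. The median difference of the 8 was -0.28, against 0.0066 over all genes. Of the 8, 7 were below 0, against 48.8% of all genes, the exception being Hmgcs1 at 0.021. The W692A arrays all lay below the GFP arrays in Fdps and Sqle, 2 of the 8, and in 12.5% of all genes, and all above them in none of the 8 and 9.85% of all genes. Against AML1/ETO, 2 of the 8, Sqle and Cyp51, were higher with W692A and none was lower (4 and 0 at an unadjusted p under 0.05), where 9.61% of all genes were called higher and 11.1% lower. Where a gene's average exceeded the bound in W692A or AML1/ETO, 1644 of 8572 were higher and 1774 lower. These 2 calls are likewise not read as particular to the 8 genes. The median difference of the 8 between W692A and AML1/ETO was 0.35, against 0.028 over all genes. The W692A arrays all lay above the AML1/ETO arrays in Hmgcs1, Sqle and Cyp51, 3 of the 8, and in 13.7% of all genes, and all below them in none of the 8 and 13.5% of all genes. The W692A mean lay between the AML1/ETO and GFP means in 6 of the 8 genes. The same count over all genes is not given, so the 6 are not read as particular to these genes. The comparisons of AML1/ETO and of W692A with GFP share the same 3 GFP arrays, so their values are given side by side and are not independent.

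**Figure D1:**
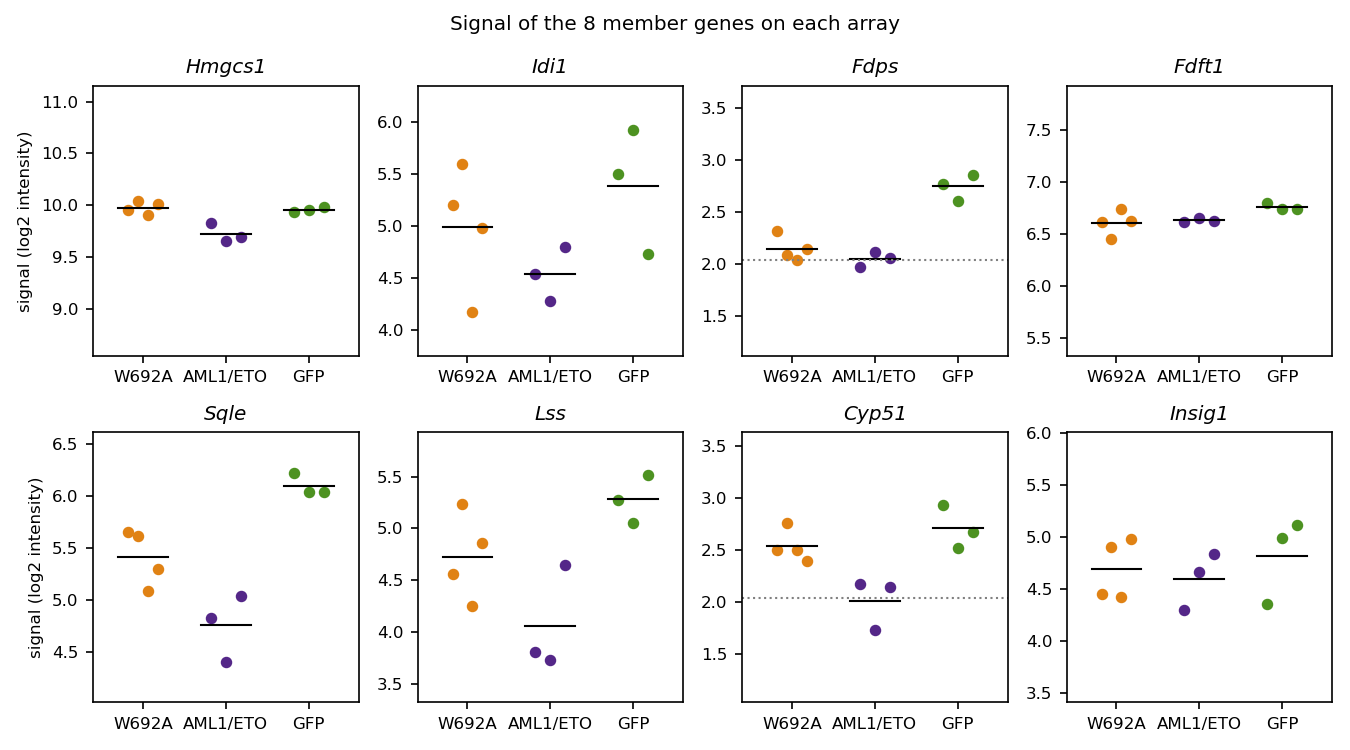
Signal (log2 intensity, vertical axis) of each of the 8 genes on every array, with W692A, AML1/ETO and GFP from left to right, 1 point per array and a line at the group mean. Panels span the same number of log2 units at different levels, and the dotted line is the background bound of 2.04. Sqle separates all 3 groups, with 5.08 to 5.65 on W692A arrays, 4.40 to 5.03 on AML1/ETO arrays and 6.03 to 6.22 on GFP arrays.

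**Figure D2:**
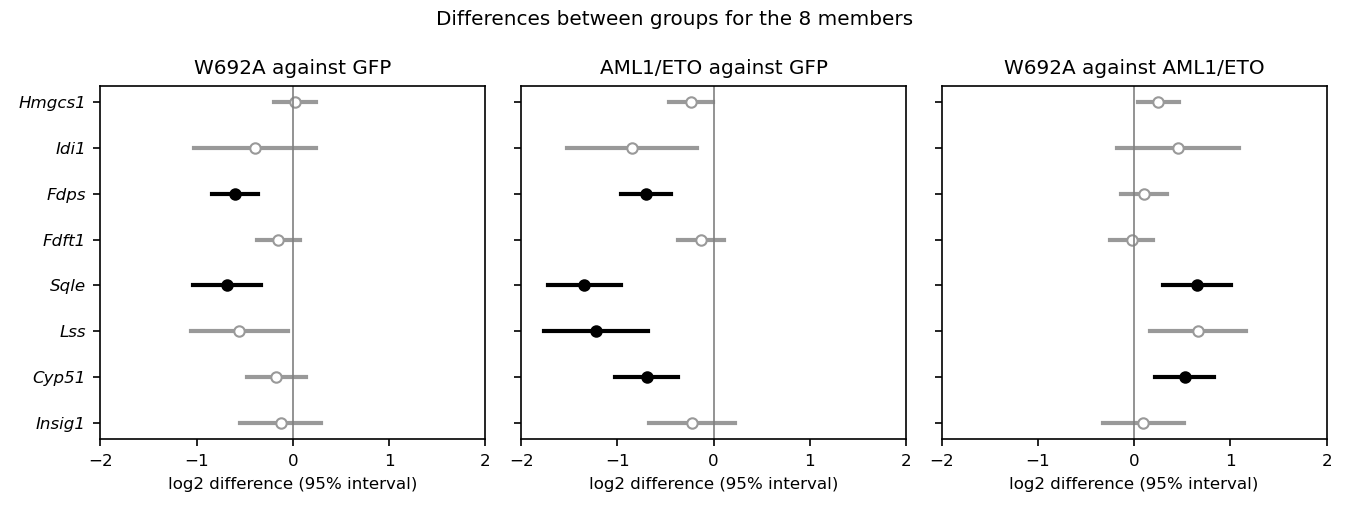
Difference in log2 signal for the 8 genes in 3 comparisons, with 95% intervals from the limma fit. Filled black points have an adjusted p under 0.05: 2 genes for W692A against GFP, 4 for AML1/ETO against GFP and 2 for W692A against AML1/ETO.

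Hmgcs1 encodes the cytosolic HMG-CoA synthase that starts the mevalonate route. Its signals were 9.95, 10.04, 9.91 and 10.01 with W692A, 9.83, 9.66 and 9.69 with AML1/ETO, and 9.93, 9.96 and 9.99 with GFP. The AML1/ETO arrays were the lowest 3, but the difference from GFP of -0.23 ± 0.11 (SE) did not pass (adjusted p = 0.138), nor did the difference of W692A from AML1/ETO (0.25 ± 0.10, adjusted p = 0.0987). W692A against GFP was 0.021, with a 95% interval of -0.19 to 0.24. On 2 other probe sets above the bound on all arrays, the groups overlapped and no comparison passed. There AML1/ETO differed from GFP by 0.017 and -0.24, and W692A from AML1/ETO by 0.024 and 0.012. The separation of the AML1/ETO arrays was thus seen on the used probe set and not on these.

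Idi1, the isomerase that makes the electrophilic isoprene unit, had signals of 5.21, 5.60, 4.17 and 4.98 with W692A, 4.54, 4.28 and 4.80 with AML1/ETO, and 5.50, 5.93 and 4.73 with GFP. The groups overlapped, and replicate 3 was the lowest array of both GFP and W692A. AML1/ETO differed from GFP by -0.85 ± 0.32 (adjusted p = 0.0599), which missed the threshold but passed in 11 of 22 alternatives. It passed when GFP replicate 3 was left out (-1.18, adjusted p = 0.0112), and also without W692A replicate 2 (adjusted p = 0.0429) or W692A replicate 3 (0.0192), which enter only through the shared spread. The differences of W692A from GFP (-0.40, 95% interval -1.03 to 0.24) and from AML1/ETO (0.45, -0.18 to 1.09) did not pass. The second probe set of Idi1 was also above the bound on all arrays and gave 4.38, 4.52, 3.69 and 4.23 with W692A, 3.88, 3.61 and 3.81 with AML1/ETO, and 5.14, 4.82 and 4.86 with GFP. On it GFP was the highest group without overlap, and both AML1/ETO (-1.17, adjusted p = 0.000214) and W692A (-0.73, adjusted p = 0.0123) were lower than GFP, with p adjusted over all probe sets.

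Fdps makes farnesyl diphosphate, the branch point to sterols, ubiquinone, dolichol and protein prenylation. It was dim: 2.32, 2.09, 2.04 and 2.14 with W692A, 1.97, 2.12 and 2.06 with AML1/ETO, and 2.77, 2.61 and 2.86 with GFP. All GFP arrays were above all others, and both fusion groups lay close to the background bound. It was at least 1.60-fold lower with AML1/ETO than with GFP (-0.70 ± 0.12, adjusted p = 0.000329) and 1.52-fold lower with W692A than with GFP (-0.60 ± 0.11, adjusted p = 0.00201). W692A against AML1/ETO was 0.10, with a 95% interval of -0.14 to 0.34. Its second probe set was below the bound on all arrays.

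Fdft1, squalene synthase, commits farnesyl diphosphate to sterols. Its signals were 6.61, 6.45, 6.74 and 6.62 with W692A, 6.62, 6.65 and 6.63 with AML1/ETO, and 6.80, 6.74 and 6.74 with GFP. The spread was small, and no comparison passed: AML1/ETO against GFP was -0.13 (95% interval -0.37 to 0.11), W692A against GFP -0.15 (-0.37 to 0.07) and W692A against AML1/ETO -0.03 (-0.25 to 0.20). Another probe set of Fdft1, dimmer but above the bound on all arrays, gave 2.61, 2.39, 2.50 and 2.66 with W692A, 2.78, 2.73 and 2.85 with AML1/ETO, and 3.71, 2.94 and 3.45 with GFP. On that probe set both W692A (-0.82, adjusted p = 0.00279) and AML1/ETO (-0.58, adjusted p = 0.0183) were lower than GFP, so the 2 bright probe sets of this gene disagreed.

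Sqle, the squalene epoxidase that adds the first oxygen and is a rate-controlling step after HMG-CoA reductase, had the largest fall among the 8. Its signals were 5.65, 5.61, 5.08 and 5.29 with W692A, 4.83, 4.40 and 5.03 with AML1/ETO, and 6.22, 6.04 and 6.03 with GFP. The 3 groups did not overlap on any array. Sqle was 2.54-fold lower with AML1/ETO than with GFP (-1.34 ± 0.18, adjusted p = 2.91e-05) and 1.61-fold lower with W692A than with GFP (-0.69 ± 0.17, adjusted p = 0.0109). It was 1.58-fold higher with W692A than with AML1/ETO (0.66 ± 0.17, adjusted p = 0.00968). The W692A call against GFP was lost without GFP replicate 1 (-0.63, adjusted p = 0.0591) and the call against AML1/ETO without AML1/ETO replicate 2 (0.48, adjusted p = 0.0676). Sqle had 1 probe set.

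Lss, lanosterol synthase, closes squalene epoxide into the sterol rings. It was at 4.56, 5.23, 4.25 and 4.85 with W692A, 3.81, 3.73 and 4.65 with AML1/ETO, and 5.28, 5.05 and 5.52 with GFP. AML1/ETO replicate 3 was about as bright as the W692A arrays, and 1 W692A array reached the GFP range. Lss was 2.33-fold lower with AML1/ETO than with GFP (-1.22 ± 0.25, adjusted p = 0.00155). W692A did not pass against GFP (-0.56, 95% interval -1.06 to -0.05, adjusted p = 0.145, and 0.38 with the Gapdh covariate described at the end) or against AML1/ETO (0.66, 0.16 to 1.17, adjusted p = 0.0609). The last of these passed in 9 of 22 alternatives, among them without AML1/ETO replicate 3 (0.96, adjusted p = 0.0067) or without W692A replicate 3 (0.82, adjusted p = 0.021).

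Cyp51, the sterol demethylase that acts on lanosterol, was at 2.50, 2.76, 2.49 and 2.40 with W692A, 2.17, 1.73 and 2.14 with AML1/ETO, and 2.94, 2.52 and 2.68 with GFP. The AML1/ETO arrays were the lowest 3, with 1 below the background bound, and W692A overlapped GFP. Cyp51 was at least 1.51-fold lower with AML1/ETO than with GFP (-0.70 ± 0.15, adjusted p = 0.0025) and at least 1.34-fold higher with W692A than with AML1/ETO (0.53 ± 0.14, adjusted p = 0.0161). Without AML1/ETO replicate 2 the second call was lost (0.38, adjusted p = 0.106), and it was also lost on the mean of the gene's 3 probe sets (0.10, adjusted p = 0.537) and with the spike-in signal as a covariate (adjusted p = 0.0510). W692A against GFP was -0.17 (95% interval -0.48 to 0.14).

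Insig1, itself a target of SREBP and the anchor that retains SCAP, did not pass in any comparison. Its signals were 4.45, 4.90, 4.42 and 4.98 with W692A, 4.29, 4.66 and 4.83 with AML1/ETO, and 4.35, 4.99 and 5.12 with GFP. The 3 groups overlapped, and each held an array near the lowest value. The differences were -0.22 for AML1/ETO against GFP (95% interval -0.68 to 0.23), -0.13 for W692A against GFP (-0.55 to 0.29) and 0.10 for W692A against AML1/ETO (-0.33 to 0.52).

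The 8 genes had 21 probe sets, of which 10 were above the bound on all arrays, 7 on none and 4 on some. Of the 10 bright ones, 4 were lower with AML1/ETO than with GFP and 3 were lower with W692A than with GFP, and none was higher in either comparison. Where a gene's average exceeded the bound in either compared group, 2624 of 8769 genes were lower and 1992 higher with AML1/ETO than with GFP. For W692A against GFP, 1506 of 8530 such genes were lower and 866 higher. These are counts of genes, and a count over all probe sets is not given. The 4 and the 3 are thus not read as particular to the 8 genes. Probe sets other than the used one and mostly below the bound also passed: both others of Cyp51 and 1 of Lss were lower than GFP in both fusion groups. On the 2 others of Cyp51, W692A did not differ from AML1/ETO past the test (-0.05, adjusted p = 0.91, and -0.17, adjusted p = 0.418), unlike the used one. The sources used here do not say which part of a transcript each probe set reads.

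**Figure D3:**
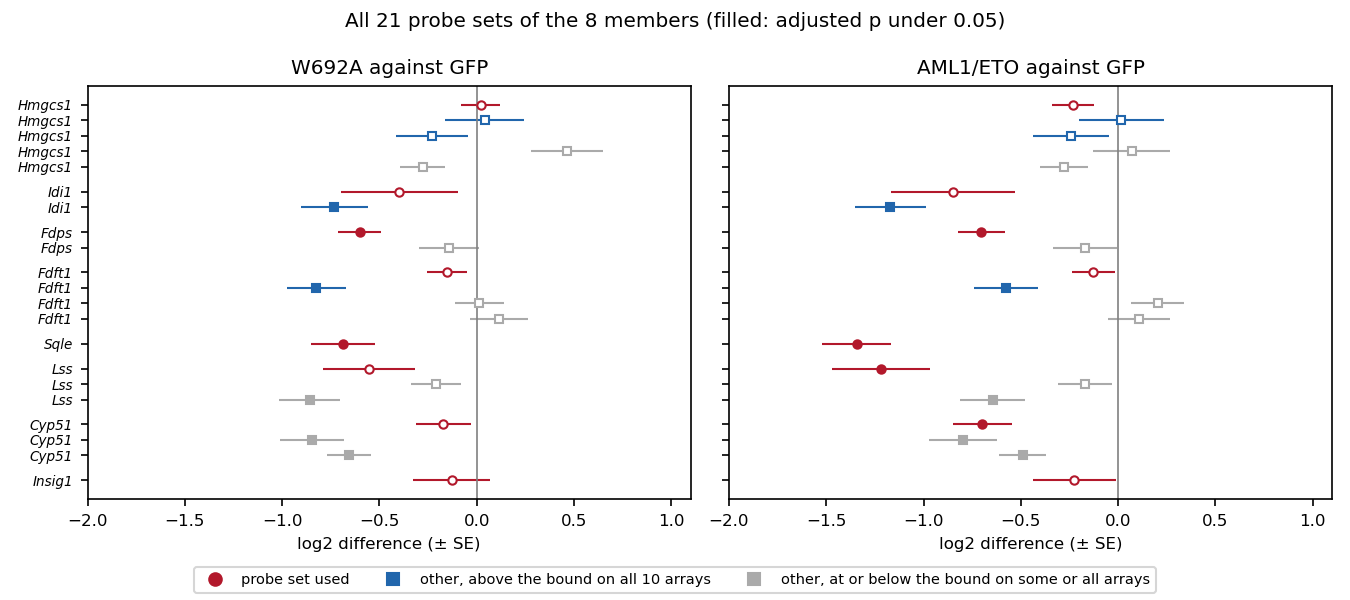
Difference in log2 signal (horizontal axis, with SE) from GFP for all 21 probe sets of the 8 genes, for W692A at the left and AML1/ETO at the right. Circles are the probe sets used, squares the others, and filled symbols have an adjusted p under 0.05 over all probe sets. Both probe sets of Idi1 lie below 0, while those of Fdft1 spread from -0.82 to 0.11 for W692A against GFP.

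Across the 10 arrays the 8 genes varied together to different degrees. Over the 28 pairs, Pearson's r between log2 signals ranged from -0.17 (Fdft1 and Insig1) to 0.89 (Sqle and Lss), with a median of 0.56, and 25 pairs were above 0. These values include the differences between groups. After the group means were removed, r ranged from -0.67 (Idi1 and Fdft1) to 0.71 (Sqle and Cyp51). Fdft1 was then below 0 with every other member, and Sqle and Lss had an r of 0.64. These 10 points lie in 3 groups and share the arrays' normalization, so the values are a description. The mean of the 8 genes was 5.16, 5.34, 4.89 and 5.16 with W692A, 4.76, 4.65 and 4.98 with AML1/ETO, and 5.47, 5.48 and 5.46 with GFP. The GFP arrays were the closest to each other, and AML1/ETO replicate 3 lay above W692A replicate 3. Within W692A, replicate 3 was the lowest array for 6 of the 8 genes, and within AML1/ETO, replicate 2 was the lowest for 5.

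Among 8812 other genes that exceeded the bound in the mean of at least 1 group, those most like the mean of the 8, each gene centred on its own mean, were Vsir (r = 0.987), Topbp1 (0.987), Ddx27 (0.986), Wdr75 (0.981) and Gins3 (0.977) over 10 arrays. The most opposite were Rnasek (-0.970), Cd99 (-0.969) and Gpx7 (-0.967). After the group means were removed, Ddx27 had an r of 0.960 and Topbp1 of 0.933. As these genes were picked by r over the same arrays, these values are in part fixed by that choice and are a description. Topbp1, for example, averaged 5.68 with W692A, 4.92 with AML1/ETO and 6.33 with GFP. Of the sterol and fatty acid lists, the genes closest to this pattern were Elovl6 at rank 46 (r = 0.947) and Hsd17b7 at rank 83 (0.936).

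The rest of the pathway was read from a list of 15 further genes of cholesterol synthesis, of which 12 were measured. With AML1/ETO against GFP, 6 of the 12 were lower and 1 was higher, with a median of -0.44. Dhcr7, the reductase of the last step, showed the largest difference of these: 4.65, 5.19, 5.15 and 4.81 with W692A, 3.76, 4.27 and 4.49 with AML1/ETO, and 5.66, 5.88 and 6.08 with GFP. The groups did not overlap, and Dhcr7 was 3.25-fold lower with AML1/ETO than with GFP (-1.70 ± 0.19, adjusted p = 6.16e-06) and 1.90-fold lower with W692A than with GFP (-0.93, adjusted p = 0.00254). Hsd17b7, a reductase of the sterol demethylation complex, was 1.79-fold lower with AML1/ETO (adjusted p = 0.00029), and Msmo1, the oxidase of that complex, 1.69-fold lower (adjusted p = 0.0009). Lbr, which is both a lamin receptor and a sterol reductase (1.66-fold), Nsdhl (1.55-fold), a sterol dehydrogenase, and Tm7sf2 (1.43-fold), a second sterol reductase, were lower as well. The 1 higher gene was Ggps1 (1.41-fold, adjusted p = 0.0068), which draws farnesyl diphosphate away towards geranylgeranyl groups.

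With W692A against GFP, 3 of the 12 were lower, Dhcr7, Tm7sf2 (1.49-fold, adjusted p = 0.00623) and Nsdhl (a log2 difference of -0.49, adjusted p = 0.0445), and none was higher (5 and 1 at an unadjusted p under 0.05), with a median of -0.077. The Nsdhl call was lost without any 1 of GFP replicate 1 or 3, AML1/ETO replicate 1 or 2, or W692A replicate 1 or 3, with adjusted p up to 0.188. With W692A against AML1/ETO, 6 of the 12 were higher and 1, Ggps1, was lower (1.32-fold). Dhcr7 (1.71-fold, adjusted p = 0.00556), Msmo1 (1.64-fold, adjusted p = 0.00149), Lbr (1.57-fold, adjusted p = 0.00409) and Pmvk, a kinase of the mevalonate part (1.55-fold, adjusted p = 0.00421), were higher under each array left out. Calls of the other 2 higher genes, Hsd17b7 (1.38-fold) and Ebp (1.28-fold), and of Ggps1 were lost without AML1/ETO replicate 2, with adjusted p of at most 0.107, 0.146 and 0.0977 over the arrays left out: Hsd17b7 also without AML1/ETO replicate 1 or W692A replicate 2, Ebp without W692A replicate 4, and Ggps1 without AML1/ETO replicate 1 or W692A replicate 3 or 4.

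In pathway order, with a split at squalene chosen after the values were seen, the 8 measured genes from Hmgcs1 to Fdft1 held 1 lower and 1 higher call for AML1/ETO against GFP. The 11 from Sqle to Dhcr7 held 9 lower calls and no higher one. Their median differences were -0.18 and -0.73. Over all genes, 15.8% were called lower and 12.9% higher, and of the 8769 with a group mean above the bound, 2624 lower and 1992 higher. In the first stretch Mvd was below the bound on all arrays, and the higher call was Ggps1, of a branch. Idi1 and Fdft1, not called there, were lower with AML1/ETO on another bright probe set (-1.17 and -0.58), and also with W692A (-0.73 and -0.82). The contrast between the stretches thus depends in part on the probe set used. For W692A against GFP the same stretches held 1 and 4 lower calls, with medians of -0.025 and -0.42. Lower calls were made for 9.07% of all genes and for 1506 of the 8530 above the bound. For W692A against AML1/ETO they held 1 and 7 higher calls, with medians of 0.069 and 0.53. Higher calls were made for 9.61% of all genes and for 1644 of the 8572 above the bound.

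**Figure D4:**
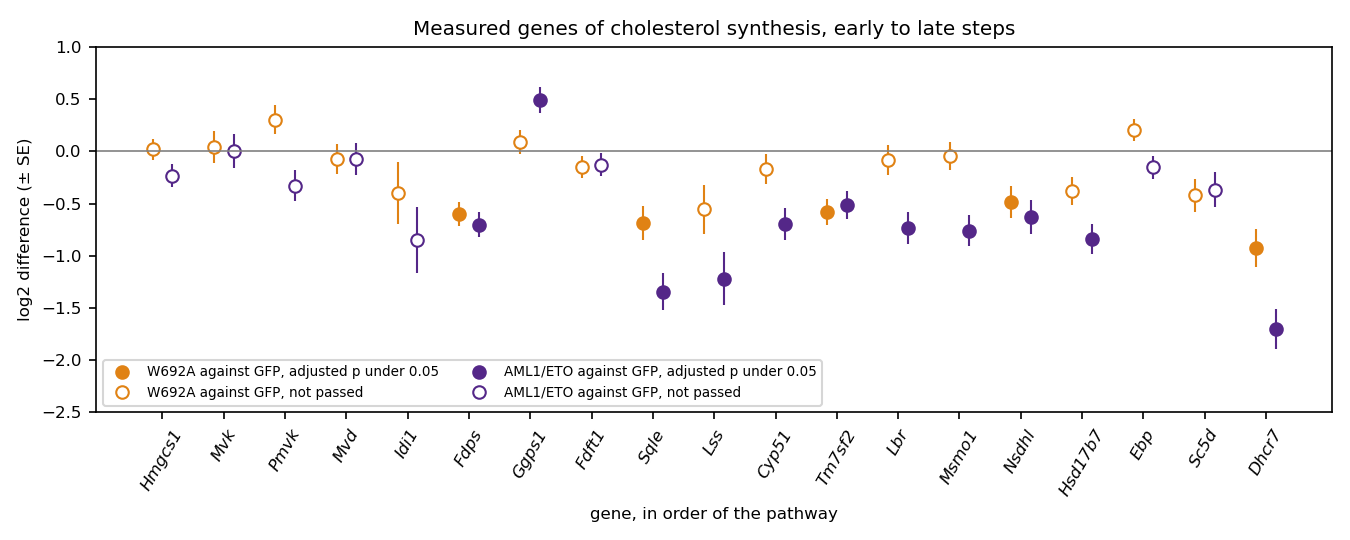
Difference in log2 signal from GFP (with SE) for 19 measured genes of cholesterol synthesis, in pathway order from Hmgcs1 at the left to Dhcr7 at the right, for W692A (orange) and AML1/ETO (purple). Filled points have an adjusted p under 0.05. From Sqle on, 9 of 11 AML1/ETO points are filled, down to -1.70 for Dhcr7.

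Genes that sense sterols and control SREBP gave 10 measured of 11 listed. Srebf2, the gene of SREBP-2, had signals of 3.98, 3.93, 3.97 and 4.35 with W692A, 3.80, 3.63 and 3.72 with AML1/ETO, and 3.48, 3.66 and 3.74 with GFP. It overlapped between AML1/ETO and GFP and did not pass there (0.090, adjusted p = 0.724). With W692A it was 1.35-fold higher than with GFP (adjusted p = 0.0318), a call that was lost without GFP replicate 1, GFP replicate 2 or W692A replicate 4 (adjusted p up to 0.144). Srebf1, the gene of SREBP-1, did not pass in any comparison (-0.086 for AML1/ETO and -0.25 for W692A against GFP, and -0.17 for W692A against AML1/ETO).

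Of the same 10 genes, 2 were higher and 2 lower with AML1/ETO than with GFP. Insig2, the second retention anchor, was at 3.93, 3.66 and 3.94 with AML1/ETO and 2.45, 3.17 and 2.40 with GFP, or 2.25-fold higher (1.17 ± 0.25, adjusted p = 0.0019). Scap, the SREBP escort, was 1.71-fold lower (adjusted p = 0.000361), with 5.47, 5.71 and 5.86 with AML1/ETO and 6.34, 6.47 and 6.55 with GFP. Neither pair of groups overlapped. Mbtps1, the first protease that cuts SREBP, was 1.34-fold higher (adjusted p = 0.0259) and Pgrmc1, a haem-binding partner of sterol enzymes, 1.39-fold lower (adjusted p = 0.0455). Both calls depended on single arrays: Mbtps1 was lost without GFP replicate 1 or AML1/ETO replicate 1 or 3 (adjusted p up to 0.105), and Pgrmc1 without GFP replicate 1 or 2, AML1/ETO replicate 1 or 2, or W692A replicate 3 (up to 0.16).

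With W692A against GFP, Srebf2 and Mbtps1 (1.31-fold, adjusted p = 0.0482) were higher and Pgrmc1 (a log2 difference of -0.59, adjusted p = 0.019) was lower. Mbtps1 passed only with all arrays or without AML1/ETO replicate 2 or W692A replicate 3 (adjusted p up to 0.19 otherwise), and Pgrmc1 was lost without GFP replicate 1 or 2 or W692A replicate 2 or 4 (up to 0.0956). With W692A against AML1/ETO, Scap was 1.41-fold higher (adjusted p = 0.00956, and 0.0654 without AML1/ETO replicate 1). Insig2 (1.69-fold, adjusted p = 0.0309), Rnf139 (1.45-fold, adjusted p = 0.0358) and Erlin2 (1.41-fold, adjusted p = 0.0214) were lower. These last 3, of which Rnf139 is a ubiquitin ligase and Erlin2 a membrane scaffold of the sterol-regulated degradation machinery, were each lost without AML1/ETO replicate 1, AML1/ETO replicate 3 or W692A replicate 4, Rnf139 and Erlin2 also without W692A replicate 2, and Insig2 and Rnf139 also without W692A replicate 3, with adjusted p up to 0.0975, 0.191 and 0.104.

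Uptake and transport of sterols gave 10 measured of 13 listed genes. With AML1/ETO against GFP, 3 were higher and 2 lower. Mylip, the ubiquitin ligase that marks lipoprotein receptors for degradation, was at 5.56, 5.69, 5.43 and 5.78 with W692A, 6.09, 6.21 and 6.51 with AML1/ETO, and 4.56, 4.91 and 4.79 with GFP. Its 3 groups did not overlap. Mylip was 2.87-fold higher with AML1/ETO than with GFP (1.52 ± 0.14, adjusted p = 1.11e-06) and 1.82-fold higher with W692A than with GFP (adjusted p = 0.000481), and 1.58-fold lower with W692A than with AML1/ETO (adjusted p = 0.0024). Npc1 (1.69-fold, adjusted p = 0.000416) and Npc2 (1.62-fold, adjusted p = 0.000311), which pass cholesterol out of lysosomes, were higher with AML1/ETO than with GFP. Scarb1, the HDL receptor (1.56-fold, adjusted p = 0.0416), and Stard4, a cytosolic sterol carrier (1.36-fold, adjusted p = 0.0289), were lower. Scarb1 lost its call without any 1 of the 3 GFP arrays, AML1/ETO replicate 1, or W692A replicate 2 or 4 (adjusted p up to 0.226), and Stard4 without GFP replicate 2 or 3 or AML1/ETO replicate 1 or 2 (up to 0.134).

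With W692A against GFP, Mylip was the 1 of these 10 that passed. With W692A against AML1/ETO, 4 were lower and none was higher (5 and 3 at an unadjusted p under 0.05): Mylip, Npc2 (1.44-fold, adjusted p = 0.00285), Npc1 (1.42-fold, adjusted p = 0.00882) and Stard3, an endosomal sterol transporter (1.33-fold, adjusted p = 0.0219). The call of Npc1 was lost without AML1/ETO replicate 1 (adjusted p = 0.05001), and Stard3 was lost without AML1/ETO replicate 2 or 3 or W692A replicate 2 (up to 0.0865).

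Of 7 measured genes of efflux and of the LXR response, out of 10 listed, 3 were higher with AML1/ETO than with GFP and none was lower. The shares of all genes were 12.9% and 15.8%. Abca1, the pump that exports cholesterol and a target of LXR, was at 2.11, 1.22, 1.55 and 1.75 with W692A, 3.91, 3.30 and 2.88 with AML1/ETO, and 0.78, 0.99 and 1.18 with GFP. It was above the bound on all AML1/ETO arrays, on 1 W692A array and on no GFP array. AML1/ETO exceeded GFP by at least 2.50-fold for Abca1 (adjusted p = 2.17e-06) and W692A was lower than AML1/ETO by at least 2.47-fold (adjusted p = 6.33e-05). For Ch25h, which makes an oxysterol, AML1/ETO exceeded GFP by at least 1.34-fold (adjusted p = 0.0024) and W692A was lower than AML1/ETO by at least 1.33-fold (adjusted p = 0.0164, lost without AML1/ETO replicate 3 at 0.0999). Apoe passed in the same 2 comparisons but was below the bound on every array, so it has no fold. By limma none of the 7 passed between W692A and GFP (1 higher and 0 lower at an unadjusted p under 0.05).

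The fatty acid list, read mainly by SREBP-1, had 11 measured genes. With AML1/ETO against GFP, 5 were lower and 2 higher (15.8% and 12.9% of all genes). Elovl6, a fatty acid elongase, was 2.23-fold lower (adjusted p = 1.49e-05), Acaca, acetyl-CoA carboxylase, 2.13-fold lower (adjusted p = 4.8e-05) and Fads1, a desaturase, 2.07-fold lower (adjusted p = 0.000134). Fads2, another desaturase, was at least 1.61-fold lower (adjusted p = 0.000113), and Acss2, which makes acetyl-CoA from acetate, at least 1.15-fold lower (adjusted p = 0.0158). Acss2 lost its call without GFP replicate 1 or 2 or AML1/ETO replicate 1 or 2 (adjusted p up to 0.0883). The higher 2 were Acly, ATP citrate lyase (1.41-fold, adjusted p = 0.00341), and Me1, malic enzyme (at least 1.16-fold, adjusted p = 3.34e-05).

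With W692A against GFP, 4 of the 11 were lower and none higher: Fads2 (at least 1.61-fold, adjusted p = 0.0102), Acss2 (at least 1.15-fold, adjusted p = 0.00572), Elovl6 (1.39-fold, adjusted p = 0.0266) and Elovl5 (1.33-fold, adjusted p = 0.0232). Of these, Fads2 was lost without GFP replicate 1 or 3 (adjusted p up to 0.0536), Elovl6 without any 1 GFP array or W692A replicate 1 or 3 (up to 0.0785) and Elovl5 without GFP replicate 1 or 2 or W692A replicate 3 (up to 0.0976). Elovl6 and Elovl5 each had 1 other probe set above the bound on all arrays, which did not pass in this comparison. With W692A against AML1/ETO, Elovl6, Acaca and Fads1 were higher (1.61-fold, 1.61-fold and 1.63-fold, adjusted p from 0.00161 to 0.00356), and Acly (1.36-fold) and Me1 (at least 1.16-fold) were lower (adjusted p of 0.00795 and 0.00177).

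Of 9 measured genes of the prenyl branches, Nus1, a dolichol synthase subunit, was higher with AML1/ETO than with GFP (1.57-fold, adjusted p = 0.0291) and Pdss2, of ubiquinone synthesis, was lower (1.56-fold, adjusted p = 0.00755). Such calls were made for 12.9% (higher) and 15.8% (lower) of all genes, so these counts are not read as particular to the list. By limma none passed for W692A against GFP (1 higher and 0 lower at an unadjusted p under 0.05). With W692A against AML1/ETO, Pdss2 (1.57-fold, adjusted p = 0.0064) and Cox10, which farnesylates haem (1.46-fold, adjusted p = 0.0107), were higher and Nus1 lower (1.51-fold, adjusted p = 0.0428). Cox10 was lost without AML1/ETO replicate 2 (adjusted p = 0.0605). Nus1 was lost in the first comparison without GFP replicate 1 or AML1/ETO replicate 2 or 3 and in the last without AML1/ETO replicate 2 or 3 or W692A replicate 1 or 2 (up to 0.164 and 0.174). Of its 5 other probe sets, 2 above the bound on all arrays, none was called higher with AML1/ETO than with GFP and 1 was called lower. None of the 5 was called lower with W692A than with AML1/ETO. The probe sets of Nus1 thus disagreed.

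Several other measures moved with these differences. Proliferation genes (5 measured: Mki67, Top2a, Aurkb, Mcm5 and Tk1) averaged 7.39 to 7.66 per array with W692A, 6.26 to 6.54 with AML1/ETO and 7.64 to 7.83 with GFP. All 5 were lower with AML1/ETO than with GFP, 1 of 5 was lower with W692A than with GFP, and all 5 were higher with W692A than with AML1/ETO. Monocyte and macrophage markers averaged 6.00 to 6.37 with W692A, 6.47 to 6.90 with AML1/ETO and 5.04 to 5.36 with GFP, and 4 of 5 were higher than GFP in each fusion group. Stem and progenitor markers averaged 5.09 to 5.33 with W692A, 5.83 to 5.88 with AML1/ETO and 4.37 to 4.54 with GFP, with 5 of 9 higher and 1 lower with W692A than with GFP, and 6 of 9 higher and 1 lower with AML1/ETO than with GFP. The lower one was Flt3 in both, and Kit, below the bound, was among the 6. Of 6 neutrophil markers, 5 were lower and 1 higher with W692A than with GFP, and 3 were lower and 1 higher with AML1/ETO than with GFP. Every gene of the proliferation and monocyte lists was above the bound on all arrays, as were all but Kit of the stem and progenitor list. Of 5 mast cell, basophil and eosinophil markers, Epx and Prg2 were lower and Cpa3 was higher than with GFP in both fusion groups. Epx was 17.3-fold lower with W692A and 13.6-fold lower with AML1/ETO, and Cpa3 was 3.48-fold higher with W692A and 8.56-fold higher with AML1/ETO. The 5 averaged 4.26 to 4.52 with W692A, 4.69 to 5.74 with AML1/ETO and 5.26 to 5.85 with GFP. Of 4 megakaryocyte markers, 3 were lower and 1, Pf4, was higher than with GFP in both fusion groups, and they averaged 3.68 to 3.91 with W692A, 3.91 to 4.09 with AML1/ETO and 4.37 to 4.59 with GFP. Thy1, the 1 of 4 T and NK cell markers above the bound, was 2.85-fold lower with W692A and 4.29-fold lower with AML1/ETO than with GFP. Klf1, the 1 of 3 erythroid markers above the bound on any array, was lower in both fusion groups. Of 6 stromal and endothelial markers, Col1a2 was above the bound on AML1/ETO arrays alone (4.83, 5.06 and 5.31), Pdgfrb on GFP arrays alone, and the other 4 on none. None of 4 B cell markers passed in either comparison with GFP. The part of these cell markers in the results was not tested.

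The 3′ minus 5′ signal of the Gapdh controls, which follows RNA integrity and amplification length, was 3.81 to 4.17 with W692A, 4.01 to 5.04 with AML1/ETO and 4.83 to 4.99 with GFP, so W692A did not overlap GFP. With this difference as a covariate, Fdps (-0.70, adjusted p = 0.00503), Sqle (-1.10, 0.0012), Lss (-0.66, 0.0437) and Cyp51 (-0.61, 0.0405) remained lower with AML1/ETO than with GFP, Lss by a difference that had been -1.22 without it, and Sqle (0.00411) and Cyp51 (0.0252) remained higher with W692A than with AML1/ETO. Neither gene called between W692A and GFP remained: Fdps had -0.60 (adjusted p = 0.169) and Sqle -0.29 (adjusted p = 0.775). Without the covariate these were -0.60 and -0.69, so Fdps lost its call with its difference hardly changed. As W692A and GFP did not overlap in this measure, its effect and that of the construct cannot be told apart between them. AML1/ETO reached the GFP values through replicate 3 alone (5.04), with 4.08 and 4.01 on replicates 1 and 2. Between AML1/ETO and GFP the overlap thus rests on 1 array. The 18S ribosomal RNA signal was 8.18 to 8.65 with AML1/ETO, 7.74 to 8.13 with GFP and at least 8.56 with W692A. It separated both fusion groups from GFP, and its part in the results was not tested. Of the further cholesterol synthesis genes, Dhcr7, Hsd17b7, Msmo1 and Lbr remained lower with AML1/ETO than with GFP (adjusted p from 0.000271 to 0.0354), while Tm7sf2 (0.0832), Nsdhl (0.16) and Ggps1 (0.0715) did not pass, and none of the 3 called between W692A and GFP did. The covariate also ended all 4 fatty acid calls between W692A and GFP, with adjusted p of 0.0796 for Fads2, 0.684 for Acss2, 0.697 for Elovl5 and 0.894 for Elovl6, and the 3 calls of sterol sensing genes there, while Mylip remained higher (adjusted p = 0.00196). Between AML1/ETO and GFP it ended the calls of Acss2 (0.276), Apoe (0.149), Nus1 (0.0579), Pdss2 (0.121), Pgrmc1 (0.206), Scarb1 (0.348) and Stard4 (0.458). Between W692A and AML1/ETO it ended those of Insig2 (0.118), Rnf139 (0.109), Erlin2 (0.0833), Stard3 (0.0751), Ch25h (0.108) and Nus1 (0.151).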

How the data were processed

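RNA of 10 samples was measured on mouse arrays, 1 per sample. The authors deposited a log2 intensity for every probe set. RMA is named in the submitters' processing notes without a version. The log base was read from the values (-0.18 to 12.77). RMA sets all arrays to 1 distribution, which hides differences in total RNA. The number of arrays limits the precision.

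Of 45101 probe sets, 34945 named 1 gene and were used. Those naming several genes (932), none (9160) or controls (64) were left out. Where a gene had several, the one brightest on average stood for it, which gave 18193 genes. Groups came from the labels. The fit used limma 3.58.1 (R 4.3.3), lmFit and eBayes on all 3 groups together, with Benjamini-Hochberg adjustment over all genes and a threshold of 0.05. It was tested on simulated data. Replicate numbers did not enter the fit.

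The genes, lists and motifs were chosen with earlier results of these data known. Each list names up to 3 called genes with the largest differences per comparison. Other called genes were named after their values were seen. The background bound and the split at squalene were also set then. The alternatives are given at the end.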

Additional observations from a re-analysis of the deposited data

Results flagged for a closer look

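In 7 of the 118 genes examined (the 8 cholesterol synthesis genes, the further lists and the markers), 1 W692A array stood apart from the other 3 by more than Dixon's 95% limit for 4 values (the gap to the nearest array as a share of the group's range). Chance marks about 1 in 20 groups. For Msmo1 the share was 0.952, with 4.52 on W692A replicate 1 against 4.15 on the nearest array. For Srebf2 it was 0.883, with 4.35 on W692A replicate 4 against 3.98. For Acaca it was 0.862, with 4.68 on W692A replicate 1 against 4.96. For Stard3 it was 0.976, with 4.88 on W692A replicate 4 against 4.62, and for Acly 0.894, with 8.77 on W692A replicate 4 against 8.63. Among the stem and progenitor markers it was 0.880 for Cd34, with 6.90 on W692A replicate 1 against 6.45, and 0.853 for Gata2, with 5.25 on W692A replicate 1 against 5.56. None of the 8 cholesterol synthesis genes was marked. Groups of 3 arrays were not examined in this way.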

How the results depend on the processing

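The 4 calls of Fdps, Sqle, Lss and Cyp51 between AML1/ETO and GFP held under all 22 alternatives run for each gene. Across every probe set, 9 of 21 were lower with AML1/ETO and 7 of 21 lower with W692A than with GFP. Both counts include probe sets of Cyp51 and Lss that were below the bound on most or all arrays. A share over all probe sets is not given, so these counts are a description. Genes lower with W692A than with GFP numbered 4 when all probe sets per gene were averaged and 0 with the Gapdh covariate. Genes higher with W692A than with AML1/ETO numbered 1 with the mean of probe sets or a 1.5-fold minimum, and 4 with array medians subtracted or with a trended and robust prior. With each array left out in turn, these counts ran from 4 to 5 for lower with AML1/ETO than with GFP, from 1 to 2 for lower with W692A than with GFP and from 0 to 3 for higher with W692A than with AML1/ETO.

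Some differences that had not passed changed sign. Fdft1 between W692A and AML1/ETO was 0.015 with further quantile normalization and 0.043 with medians subtracted, and ran from -0.071 to 0.027 with each array left out (above 0 without W692A replicate 2). Insig1 in that comparison was -0.0013 with the replicate block and ran from -0.054 to 0.21 with each array left out (below 0 without AML1/ETO replicate 1 or W692A replicate 4). For W692A against GFP it ran from -0.36 to 0.021 (above 0 without GFP replicate 3). With the Gapdh covariate, Insig1 was 0.40 for W692A and 0.095 for AML1/ETO against GFP, and for W692A against GFP Idi1 was 0.16 and Lss 0.38. None of these values passed, and the causes were not tested.

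For the 32 further genes of synthesis, sensing and uptake, the counts as reported were 6 higher and 10 lower for AML1/ETO against GFP, 3 and 4 for W692A against GFP, and 7 and 8 for W692A against AML1/ETO. Higher with W692A than with GFP fell to 1 with the trended prior, the fit of 2 groups, the replicate block, either covariate or a 1.5-fold minimum. Lower with W692A than with GFP was 2 with the replicate block or a 1.5-fold minimum and 0 with the Gapdh covariate. Between AML1/ETO and GFP, 5 were lower with the Gapdh covariate and 3 higher with the spike-in covariate. Between W692A and AML1/ETO, 5 were lower with medians subtracted, 4 with either covariate and 2 with a 1.5-fold minimum, and 4 were higher with that minimum. With each array left out, higher counts ran from 5 to 7, 1 to 4 and 5 to 8 in these 3 comparisons, and lower counts from 7 to 10, 2 to 4 and 3 to 8.

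The replicate numbers are not stated to pair the samples. Deviations of same-numbered arrays correlated at -0.07 to 0.27 between AML1/ETO and GFP, -0.04 to 0.33 between W692A and GFP and -0.12 to 0.44 between W692A and AML1/ETO, and 1, 2 and 1 of 3 arrays correlated best with their own number. With the replicate block, 5 of the 8 genes were lower with AML1/ETO than with GFP (Idi1 joined, adjusted p = 0.0378), 2 lower with W692A than with GFP and 2 higher with W692A than with AML1/ETO. Over all genes the block gave 5272, 2344 and 3509 calls, against 5207, 2642 and 3765 without it, and the Gapdh covariate gave 3876, 506 and 3150. Restricting the test to genes above the bound in the mean of any group was chosen after the data were seen and lost none of the calls of the 8 genes. Signal near the background bound limits Fdps and Cyp51.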
